A study of Mus musculus with 2 samples.

Results

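The genes described here are 35 named factors of ribosome biogenesis, the nucleolar work of making, trimming, modifying and folding ribosomal RNA and packing it with ribosomal proteins. They were taken by gene symbol from the list of 33696 genes measured in both libraries, all 35 symbols were found, and the rule itself uses no expression value. They fall into 8 groups by role: box C/D and box H/ACA small nucleolar ribonucleoproteins (snoRNPs), RNA polymerase I, abundant nucleolar proteins, small subunit processing, the PeBoW complex, large subunit assembly, and a pair of proteins tied to ribosomal RNA transcription.

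The libraries came from middle phalanx (P2) digits of neonate mice at postnatal day 8. P2 digits of the hindlimb were amputated at postnatal day 3, and after wound closure 1 agarose bead carrying FGF8 (500 ng/μl) or, in buffered saline, 0.1% bovine serum albumin (BSA) was placed in each digit at postnatal day 7. Tissue distal to the stump was collected 24 h later with the epithelium removed, and cells from 20 digits of 5 mice, male and female, were pooled into 1 droplet single-cell library per bead type. FGF8 is a secreted fibroblast growth factor, the BSA bead is its vehicle control, and the mice of both libraries had been amputated and had healed in the same way. With 1 library per bead type no test between conditions was possible, so every interval below is a 95% interval for counting error only and does not cover the spread between animals, pools or captures.

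In a growing cell, RNA polymerase I copies the ribosomal DNA repeats into a long precursor, snoRNPs guide methylation and pseudouridylation of that RNA, and separate sets of factors build the small and the large subunit. Cells that enter the cell cycle are known to raise ribosome production, and many of the genes involved carry binding sites for Myc family proteins, which read the E-box CACGTG. Erk signalling below growth factor receptors is known to act on polymerase I factors, and Ets family proteins, common targets of FGF signalling, read sites such as CCGGAAG.

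Promoter sequences of the members are shown because these letters are the ones a reader would look for first in genes that share a direction. In windows from 250 bases before to 50 bases after the start of the Ensembl canonical transcript (build GRCm39), CACGTG was present in 7 of 35 members, against 1679 of 21431 protein-coding windows (7.83%). The 7 were *Pes1*, *Nop56*, *Ebna1bp2*, *Nop2*, *Wdr43*, *Fbl* and *Rrs1*. CCGGAAG or its reverse complement CTTCCGG was present in 10 of 35 (28.6%), against 10.2% of all windows. The YY1 letters AAGATGGCG were present in 2 of 35 members (5.71%, against 1.33%), the palindromic NRF1 site in 0 of 35 (against 1.16%), and TATAAA in 5 of 35 (14.3%, against 13.2%), each read on both strands. The members' windows held a median of 58.0% G or C and 20 CpG steps, against 54.3% and 11 over all windows, and no adjustment was made for this difference in base composition. A match describes letters in a window and is not a measured binding site. In 4 stretches of 30 bases that lie before the annotated start of their gene, with the motif in capitals and each sequence read 5′ to 3′ on the strand of its gene, the letters stand as follows: *Ebna1bp2* (chr4:118477544-118477573, plus strand) and *Nop2* (chr6:125108774-125108803, plus strand) carry the E-box, and *Gar1* (chr3:129625070-129625099, minus strand) and *Rrs1* (chr1:9615603-9615632, plus strand) carry the Ets letters.
Ebna1bp2: ttggtCACGTGaggccgaagaccaaaaaca
Nop2: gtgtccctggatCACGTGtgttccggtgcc
Gar1: gcgccgccacaCTTCCGGaaacgtcgcgta
Rrs1: gcttccagacaacCCGGAAGtgatctttcc

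The BSA library held 3252 cells after filtering (median 15377 UMIs per cell) and the FGF8 library 6715 cells (median 12251). A UMI is a molecular tag that counts 1 captured RNA molecule, and levels are given as counts per 1000000 UMIs (CPM) summed over the cells of a type. Clustering gave 9 clusters, of which 8 could be named from markers. The largest was called fibroblast-like, with 1665 BSA cells and 3280 FGF8 cells, led by *Mfap5*, *Mfap4* and *Dpt*, and its tendon markers ranked next after its fibroblast markers. The 10 fibroblast markers summed to 45883 CPM in its BSA cells and 24809 CPM in its FGF8 cells. Digits of both sexes were pooled, but 79.3% of the sex-called BSA cells and 24.6% of the sex-called FGF8 cells were female, so the libraries differed in sex as well as in bead. The 2 libraries shared 4 barcodes among the kept cells.

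In fibroblast-like cells all 35 genes were higher in the FGF8 library. Their log2 ratios, FGF8 over BSA, ran from 0.28 (*Gnl2*) to 1.12 (*Wdr12*) with a median of 0.79, whereas the median over the 14225 genes with at least 100 UMIs was -0.07 and 43.0% of those genes were above 0. A ratio of at least 1.5-fold was reached by 26 of 35 members, against 8.94% of all genes, and none was 1.5-fold lower, against 11.4% of all genes. A ratio of at least 2-fold was reached by 4 members, against 3.27% of all genes. The 35 genes together took 2649.9 CPM (2633 to 2667) in BSA cells and 4415 CPM (4399 to 4430.4) in FGF8 cells. All 35 log2 intervals lay above 0, but the share of all genes with such intervals was not computed, so this count has no background. Counts from this kit come from the 3′ ends of transcripts and are not scaled by length, so each gene is compared only with itself.

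**Figure D1:**
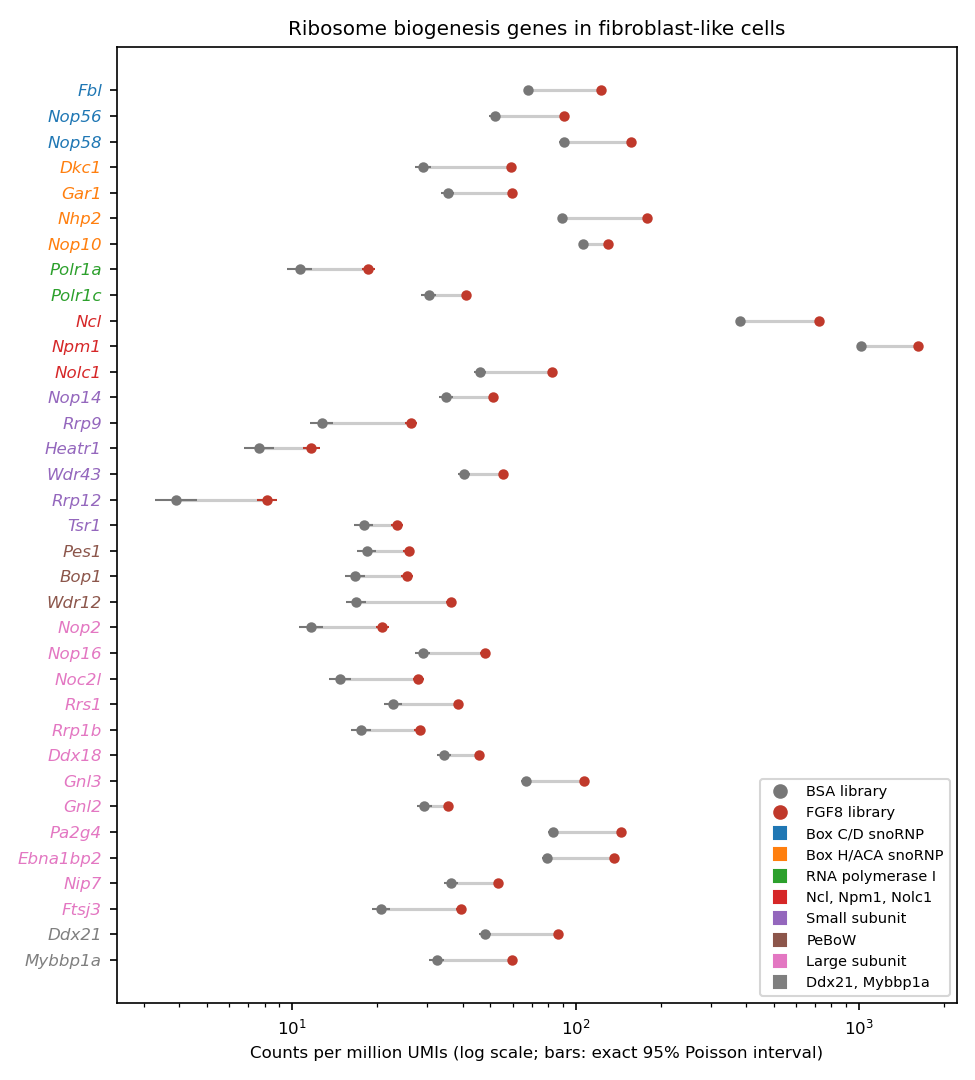
Level of each of the 35 genes in fibroblast-like cells, in CPM on a log axis, with the BSA library in gray and the FGF8 library in red, bars for exact 95% Poisson intervals, and gene names coloured by role. The red point lies to the right of the gray one for every gene, from *Gnl2* (29.2 and 35.6 CPM) to *Wdr12* (16.8 and 36.4 CPM).

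Box C/D snoRNPs place 2′-O-methyl groups on ribosomal RNA. Their methyltransferase fibrillarin, *Fbl*, was at 68.2 CPM in the BSA library and 123 CPM in the FGF8 library, a log2 ratio of 0.85 (0.78 to 0.91). The scaffold proteins were close to it, with *Nop56* at 51.8 and 90.8 CPM (0.81, 0.73 to 0.88) and *Nop58* at 90.8 and 158 CPM (0.80, 0.74 to 0.85). The intervals of the 3 ratios overlapped one another.

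Box H/ACA snoRNPs turn uridine into pseudouridine and share 4 core proteins, whose ratios differed. *Dkc1*, the pseudouridine synthase dyskerin, was at 29.0 CPM in BSA and 59.4 CPM in FGF8 cells, a log2 ratio of 1.04 (0.94 to 1.14). *Nhp2* stood at 89.7 and 178 CPM (0.99, 0.94 to 1.05) and *Gar1* at 35.4 and 59.6 CPM (0.75, 0.66 to 0.84). *Nop10*, the smallest core protein, was at 106 and 129.9 CPM, a ratio of 0.29 (0.23 to 0.34) that lies wholly below the intervals of its 3 partners. *Dkc1* lies on the X chromosome, and its ratio in female-called cells alone is given with the sex comparison.

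RNA polymerase I was represented by *Polr1a*, its largest subunit, and *Polr1c*, a subunit that polymerase III also uses. *Polr1a* was at 10.6 CPM in BSA and 18.6 CPM in FGF8 cells (0.81, 0.64 to 0.98), and *Polr1c* at 30.4 and 41.2 CPM (0.44, 0.34 to 0.54). The subunit particular to polymerase I had the larger ratio, with no overlap of the intervals.

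Together 3 abundant nucleolar proteins carried most of the summed UMIs. Nucleophosmin, *Npm1*, which escorts ribosomal proteins and histones, rested on 35918 BSA and 112891 FGF8 UMIs and stood at 1015 and 1617 CPM (0.67, 0.65 to 0.69). Nucleolin, *Ncl*, which binds the ribosomal RNA precursor, was at 382 and 721 CPM (0.92, 0.89 to 0.95). *Nolc1*, a chaperone of snoRNPs, was at 46.0 and 82.3 CPM (0.84, 0.76 to 0.92). Since *Npm1* had the lowest ratio of these proteins and the largest share of counts, the ratio of the summed level (0.74) was below the median of the members.

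For the small subunit, 6 of 6 genes were higher (43.0% of all genes) and 3 passed 1.5-fold (8.94% of all genes). *Rrp9*, a protein of the U3 snoRNP that starts cleavage of the precursor, was at 12.7 and 26.3 CPM (1.05, 0.90 to 1.20), and *Rrp12*, which acts late and in export, was at 3.90 and 8.16 CPM (1.07, 0.79 to 1.34) from only 138 and 570 UMIs. *Heatr1*, which also takes part in ribosomal DNA transcription, was at 7.63 and 11.7 CPM (0.62, 0.42 to 0.82). Ratios of 0.55 for *Nop14*, 0.46 for *Wdr43* and 0.39 for *Tsr1* completed the group, the last being a factor of late cytoplasmic maturation. The 2 highest and the 2 lowest genes of the group did not overlap in their intervals.

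Pes1, Bop1 and Wdr12 form the PeBoW complex, which is needed for the large subunit. *Wdr12* had the highest ratio of all 35 members, at 16.8 and 36.4 CPM (1.12, 0.988 to 1.249). Its partners were at 16.7 and 25.4 CPM for *Bop1* (0.61, 0.47 to 0.74) and at 18.3 and 25.8 CPM for *Pes1* (0.49, 0.36 to 0.62). The interval of *Wdr12* lay above those of both partners.

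Among the 12 other large subunit genes all were higher (43.0% of all genes) and 9 passed 1.5-fold (8.94% of all genes). The highest were *Ftsj3*, a ribosomal RNA methyltransferase, at 20.6 and 39.3 CPM (0.94, 0.82 to 1.06), *Noc2l* at 14.8 and 27.9 CPM (0.92, 0.78 to 1.06), and *Nop2*, which methylates cytosine in large subunit RNA, at 11.7 and 20.8 CPM (0.83, 0.67 to 0.99). *Pa2g4* (0.80), *Ebna1bp2* (0.79), *Rrs1* (0.76), which loads the small 5S particle, *Nop16* (0.73), the GTPase nucleostemin *Gnl3* (0.69) and *Rrp1b* (0.69) were also past 1.5-fold. The lowest were *Nip7* (0.54), the RNA helicase gene *Ddx18* at 34.3 and 45.8 CPM (0.41, 0.32 to 0.51), and *Gnl2*, a GTPase of late nucleolar assembly, at 29.2 and 35.6 CPM (0.28, 0.18 to 0.39). *Gnl3* and *Gnl2*, related nucleolar GTPases, differed with no overlap of their intervals.

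The remaining members were *Ddx21*, an RNA helicase found at polymerase I and II genes, at 48.1 and 86.4 CPM (0.85, 0.77 to 0.93), and *Mybbp1a*, a nucleolar Myb-binding protein, at 32.3 and 59.5 CPM (0.88, 0.78 to 0.98). Both were past 1.5-fold (8.94% of all genes).

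The rest of the pathway was higher by less. Of 125 other ribosome biogenesis genes, 118 were above 0 in fibroblast-like cells (43.0% of all genes), and the median log2 ratio was 0.38. Of the 125, 34 passed 1.5-fold higher (again against 8.94% of all genes) and 0 passed 1.5-fold lower (11.4% of all genes). By role, the medians were 0.62 over 8 other snoRNP assembly genes, 0.40 over 13 other polymerase I genes, 0.38 over 54 other small subunit genes and 0.35 over 50 other large subunit genes. The highest were *Las1l*, an endonuclease subunit that cuts the spacer before 28S RNA, at 19.5 and 56.2 CPM (1.53), and *Lyar* at 49.7 and 124 CPM (1.31). At the other end, *Taf1b*, a promoter selectivity factor of polymerase I, was at 20.1 and 15.4 CPM (-0.38, -0.52 to -0.24), and *Nsa2* at 246 and 212 CPM (-0.22, -0.26 to -0.18).

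RNA levels of the ribosomal protein genes did not follow these factors closely. Ribosomal RNA, ribosomal proteins and ribosomes themselves were not measured. Of 84 ribosomal protein genes, 83 had at least 100 UMIs, 59 were above 0 (43.0% of all genes) and 24 were below 0. None passed 1.5-fold higher (8.94% of all genes) or lower (11.4% of all genes), and the median was 0.11. The highest was *Rpl8*, at 2379 and 3182 CPM (0.42). Ribosomal protein UMIs made up 17.6% of all UMIs in BSA cells and 18.9% in FGF8 cells of this type. The 15 host genes of snoRNAs spread in both directions, with a median of 0.46. Of them, 5 were past 1.5-fold higher (8.94% of all genes) and 1 past 1.5-fold lower (11.4% of all genes). *Snhg4* was the highest (0.97) and *Snhg18* the lowest, at 192 and 117 CPM (-0.71).

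Myc itself was higher in the FGF8 library, and the genes of its network went in both directions. *Myc* was at 21.2 CPM in BSA and 33.1 CPM in FGF8 fibroblast-like cells (0.64, 0.52 to 0.76). Of 11 network genes 10 had at least 100 UMIs, 5 were above 0 (43.0% of all genes) and 5 below, with a median of 0.00. The list holds repressors such as *Mxd4* as well as *Myc*, so this median gives no direction of Myc activity. *Mxd3*, a partner of Max found in cycling cells, was at 19.3 and 36.0 CPM (0.90), and *Mxd4*, a repressor linked to exit from the cycle, at 154 and 92.2 CPM (-0.74). *Mycn* was near 1 CPM in both libraries, at 1.24 and 1.15.

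**Figure D2:**
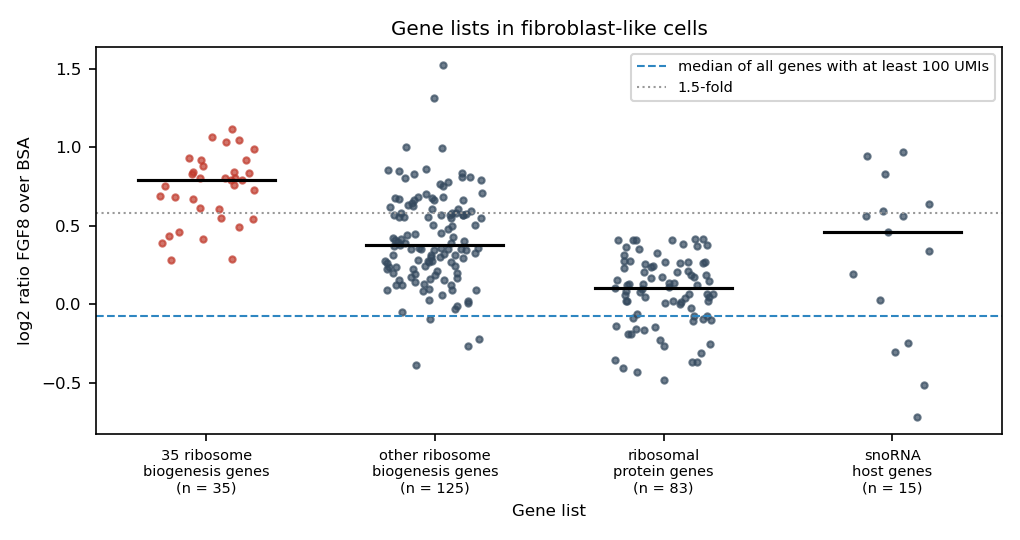
Log2 ratio, FGF8 over BSA, of every gene in 4 lists in fibroblast-like cells, with 1 point per gene, a black bar at each list's median, a dashed line at the median of all genes (-0.07) and a dotted line at 1.5-fold. The 35 members lie between 0.28 and 1.12, while the other biogenesis genes reach from -0.38 to 1.53 and the ribosomal protein genes reach no higher than 0.42.

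Because the libraries differed in sex, the members were also compared within each sex. In female-called fibroblast-like cells (1177 BSA, 685 FGF8) the summed level was 2593 CPM in BSA and 4580.2 CPM in FGF8, all 35 genes were higher (42.4% of all genes were), 26 passed 1.5-fold (9.45% of all genes) and the median was 0.85. In male-called cells (297 BSA, 2117 FGF8) it was 2798 and 4383 CPM, all 35 were higher (45.2% of all genes), 18 passed 1.5-fold (9.14% of all genes) and the median was 0.60. The intervals of 34 members lay above 0 in both sexes, the exception being *Gnl2* in male-called cells. Here too the share of all genes with such intervals was not computed. The X-linked *Dkc1* had ratios of 1.22 (female-called) and 0.85 (male-called). Whether the difference between the sexes exceeds the spread between animals could not be tested.

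The cell cycle moved with the members. A list of 97 cell cycle genes, none of them a member, took 3618 CPM in BSA and 7140.0 CPM in FGF8 fibroblast-like cells, and the proliferation marker *Mki67* stood at 61.5 and 138 CPM (1.17). When all fibroblast-like cells were ranked by their share of cell cycle UMIs and divided into 4 bins of equal size, the lowest bin held 40.5% of BSA and 17.2% of FGF8 cells and the highest 11.6% and 31.8%. This share is a continuous score, with 180 BSA and 403 FGF8 cells within 10% of its median.

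Within the bins, the difference between libraries was small except at the top. In the lowest bin the members summed to 2213 CPM in BSA and 2381 CPM in FGF8 cells, with a median log2 ratio of 0.13, 29 of 34 higher (48.6% of all genes) and 0 past 1.5-fold (2.92% of all genes). In the next bin they summed to 2492 and 2653 CPM (median 0.16, 28 of 34 higher against 51.0% of all genes, 0 past 1.5-fold against 2.98%), and in the bin above it to 3189 and 3907 CPM (median 0.27, 34 of 35 higher against 51.5% of all genes, 1 past 1.5-fold against 4.65%). In the highest bin they summed to 3350.5 and 5829.9 CPM, with a median of 0.86, 35 of 35 higher (41.7% of all genes) and 31 past 1.5-fold (7.71% of all genes). Most members were thus higher in FGF8 cells in each bin, by little in the lower bins and by more in the highest.

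Single members showed the same steps. *Ncl* was at 311 and 337 CPM in the lowest bin (0.12), 346 and 394 CPM in the next (0.19), 442 and 588 CPM in the bin above (0.41), and 542 and 1005 CPM in the highest (0.89). *Npm1* had ratios of 0.04, -0.01, 0.27 and 0.86 in the same order, and *Mybbp1a* had -0.01, 0.23, 0.46 and 1.29, the last being the widest of any member in the highest bin. *Nop10* behaved otherwise, with 149 and 155 CPM and a ratio of 0.06 in the highest bin, and *Polr1c* had 0.24 there. In the lowest bin the highest ratios were those of *Nhp2* (0.47), *Polr1a* (0.44), *Fbl* (0.37) and *Ftsj3* (0.34).

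Depth moved with the ratio too. In fibroblast-like cells with under 5000 UMIs the members summed to 1966 CPM in BSA and 2011 CPM in FGF8 cells, and only 6 members had 100 UMIs. From 5000 to 10000 UMIs the sums were 1905 and 2388 CPM, from 10000 to 20000 they were 2120.0 and 2737 CPM (median log2 ratio 0.38), from 20000 to 40000 they were 2639 and 4379.9 CPM (0.82), and above 40000 they were 3484 and 6423 CPM (0.85). From 5000 UMIs upward each deeper bin had a higher level in both libraries, and the ratio of the summed levels went from 0.0326 in the lowest bin to 0.88 in the highest. The number of UMIs in a cell follows its size and RNA content as well as capture, and their parts in the result cannot be told apart here.

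**Figure D3:**
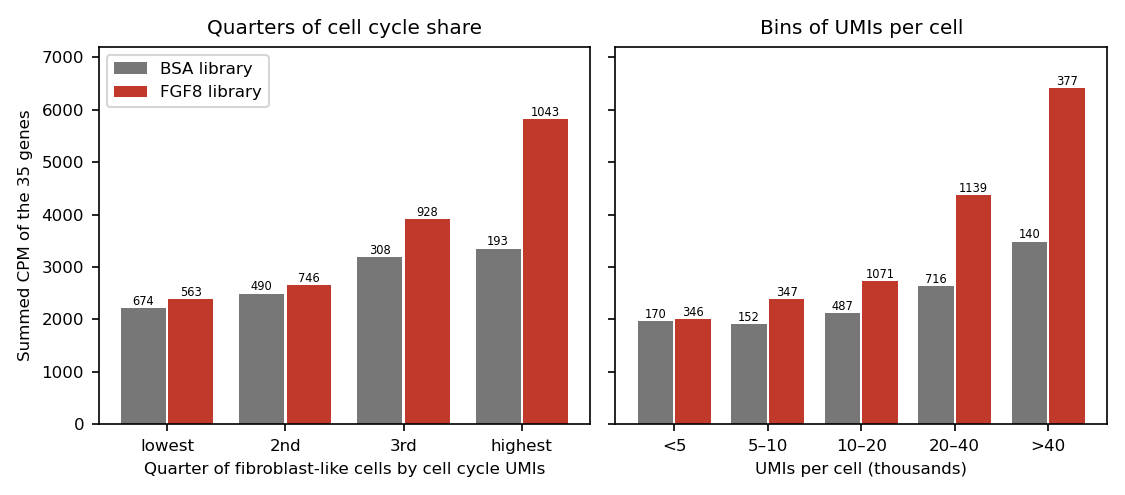
Summed level of the 35 genes in fibroblast-like cells, in CPM, in 4 equal bins of cell cycle share (left) and 5 bins of UMIs per cell (right), with BSA in gray, FGF8 in red and the number of cells above each bar. Bars of the lowest cell cycle bin are near 2213 and 2381 CPM, and those of the highest are at 3350.5 and 5829.9 CPM.

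The 10% of fibroblast-like cells with the most member UMIs held 30.8% of them in the BSA library, against 19.3% of all UMIs, and 38.4% in the FGF8 library, against 21.0% of all UMIs. Cells picked in this way tend by construction to hold a larger share of member UMIs than of all UMIs. No other gene set was compared. The median cell had 2177 CPM of member UMIs in BSA and 2893 CPM in FGF8, and the cell at the 90th percentile had 3822 and 6861 CPM. The upper end of the distribution was thus further apart between libraries than its middle.

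Fibroblast-like cells were clustered again without the members and without the other biogenesis, ribosomal protein, snoRNA host and Myc network genes. X- and Y-linked genes and genes the study listed as differentially expressed in fibroblasts were also left out. Of 3000 variable genes 2637 were kept, so these subclusters need not match those of the study. Of 7 subclusters, 1 stood out. Subcluster 0, led by *Prg4* (lubricin, made by joint lining cells), *Mmp3* (a matrix protease) and *H1f5* (a histone), held 14.9% of BSA cells (248) and 29.4% of FGF8 cells (965). Its members summed to 3610.5 CPM in BSA and 6036 CPM in FGF8 cells, 35 of 35 were higher (47.1% of all genes), 28 passed 1.5-fold (7.37% of all genes) and the median was 0.73. *Noc2l* was widest there, at 15.9 and 37.5 CPM (1.24), and *Ncl* was at 514 and 1029 CPM (1.00). Cell cycle genes in subcluster 0 stood at 8501 and 10844 CPM, and 31 of them had helped to define the subclusters.

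Outside subcluster 0 the fibroblast-like cells (1417 BSA, 2315 FGF8) had the same direction and a smaller size. The members summed to 2376 and 2894 CPM, 35 of 35 were higher (51.3% of all genes), 0 passed 1.5-fold (5.95% of all genes) and the median was 0.34. By subcluster the medians were 0.22 in subcluster 1 (led by *Chodl*), 0.49 in subcluster 2 (*Fmod*), 0.29 in subcluster 3 (*Lpl*, *Dlk1*) and 0.07 in subcluster 5 (*Coch*). Subcluster 4, led by *Lars2* and *Camk1d* with medians of 3133 and 2599 UMIs per cell, had 14 members with 100 UMIs and a median of 0.89, where 17.5% of all genes passed 1.5-fold. Subcluster 6 had 22 and 48 cells and 2 members with enough UMIs.

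Inside subcluster 0, cells at or below the median cell cycle share of all fibroblast-like cells (74 BSA, 48 FGF8) had member sums of 3474 and 3332 CPM and a median of -0.03 over 24 genes. Cells above it (174 and 917) had 3665 and 6156 CPM, a median of 0.74 and 30 genes past 1.5-fold (7.56% of all genes). Outside subcluster 0 the medians were 0.23 for cells at or below that share and 0.22 for cells above it. Of these 4 combinations the cycling cells of subcluster 0 had the widest difference between libraries, and the other 3 had medians of at most 0.23.

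**Figure D4:**
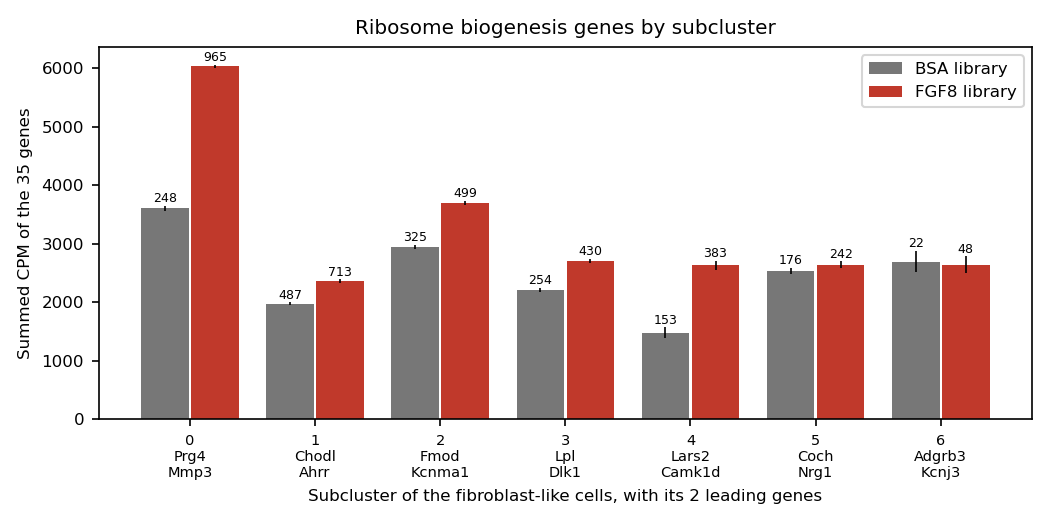
Summed level of the 35 genes in each subcluster of the fibroblast-like cells, in CPM, for BSA (gray) and FGF8 (red), with exact 95% Poisson intervals and the number of cells above each bar. Subcluster 0 is at 3610.5 and 6036 CPM, and FGF8 bars of the other subclusters lie between 2363 and 3704 CPM.

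The bounds of the fibroblast-like group bear on its value. At a finer resolution of 0.2 the fibroblast-like name went to a smaller cluster (907 BSA, 1321 FGF8 cells), beside a cluster led by *Prg4*, *Ptgis*, *Timp1* and *Thbs4* (609 and 1585 cells), and together these held fewer cells than the group described above. The members' median was 0.22 in the former with 0 past 1.5-fold (4.14% of all genes), 0.76 in the latter with 24 past 1.5-fold (8.75%), and 0.80 in both together with 26 past 1.5-fold (8.88%).

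Macrophage-like cells were the other abundant type in which all 35 genes had 100 UMIs. All 35 were higher in the FGF8 library (54.9% of all genes were), 23 passed 1.5-fold (7.84% of all genes), the median was 0.67 against 0.04 over all genes, and the sum was 2193 CPM in BSA and 3417 CPM in FGF8 cells. The highest ratios were those of *Dkc1* (16.6 and 38.5 CPM, 1.22), *Nop2* (8.63 and 19.7 CPM, 1.19) and *Nolc1* (36.2 and 81.0 CPM, 1.16). *Pes1* (0.10), *Nop10* (0.13), *Noc2l* (0.16), *Heatr1* (0.21), *Polr1c* (0.25) and *Tsr1* (0.38) had intervals that reached below 0. Thus *Noc2l* and *Pes1* differed less between beads in macrophage-like than in fibroblast-like cells, and their intervals in the 2 types did not overlap for *Noc2l* and did for *Pes1*. Cell cycle genes were at 3553 and 4496 CPM in these cells, and the members' median was 0.28 at or below the median cell cycle share and 0.74 above it. Macrophage markers were at 5625 and 5419 CPM there, fibroblast markers at 1929 and 2405 CPM and erythroid markers at 3710 and 6034 CPM. Chondrocyte markers were at 53.5 and 154 CPM and neutrophil markers at 271 and 137 CPM. The part of these marker levels was not tested.

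Other types differed by less or gave few genes. In smooth muscle or pericyte-like cells (185 and 285) the sums were 2431 and 2793 CPM, 27 of 29 members with 100 UMIs were higher (51.4% of all genes), 0 passed 1.5-fold (3.40% of all genes) and the median was 0.19. In Schwann-like cells (124 and 240) they were 3122 and 3138 CPM, 13 of 30 were higher (47.2% of all genes), 0 passed 1.5-fold (2.52% of all genes) and the median was -0.03, while cell cycle genes were at 7025 and 5756 CPM. In cluster 2, unnamed, led by *Lgals7* and *Fabp5* with medians of 2475 and 2671 UMIs per cell, the sums were 3639 and 4189 CPM, 33 of 34 were higher (59.1% of all genes), 3 passed 1.5-fold (7.10% of all genes) and the median was 0.24. Cluster 2 held markers of several cell types, with keratinocyte markers at 7092 and 7140 CPM and endothelial markers at 1221 and 1191 CPM. Other marker levels differed between its libraries, with erythroid markers at 1204 and 7136 CPM, lymphatic endothelial markers at 1497 and 431 CPM and fibroblast markers at 5996 and 3091 CPM. The members' median in cluster 2 was 0.12 over its female-called and 0.53 over its male-called cells, whose numbers are not given here. The part of these marker levels was not tested. Neutrophil-like cells (157 and 537) had 1129 and 1826 CPM, with 7 of 8 genes higher (55.2% of all genes). In these cells 6 passed 1.5-fold (15.8% of all genes) and the median was 0.62. Erythroid markers there stood at 46600.1 and 8068 CPM and macrophage markers at 646 and 312 CPM. Fibroblast markers stood at 4580 and 6139 CPM and smooth muscle or pericyte markers at 54.2 and 456 CPM. The part of these markers in the neutrophil-like values was not tested. Without integration of the libraries, 158 and 538 neutrophil-like cells gave 1394 and 1826 CPM, a median of 0.25 and 2 genes past 1.5-fold (10.4% of all genes). Over all 35 members, erythroid-like cells had the lowest sums, 361 and 381 CPM, and mast-like cells had 2119 and 2932 CPM. Only 2 members in the former and 3 in the latter reached 100 UMIs.

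**Figure D5:**
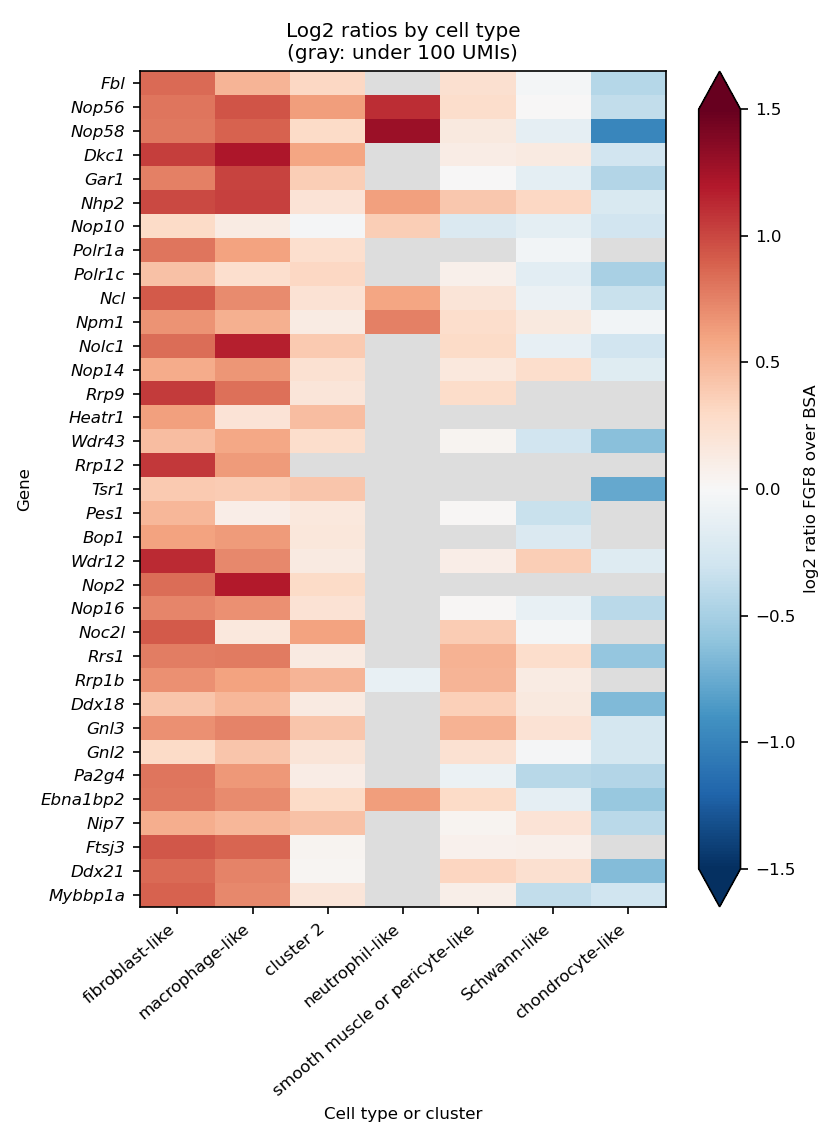
Log2 ratio, FGF8 over BSA, of the 35 genes (rows) in 7 cell types or clusters (columns), red where higher in FGF8, blue where higher in BSA and gray under 100 UMIs. The fibroblast-like and macrophage-like columns are red in all 35 rows, the Schwann-like column is mixed and the chondrocyte-like column is blue in all 25 rows it fills.

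Chondrocyte-like cells went the other way. Of the 25 members with 100 UMIs in 55 BSA and 135 FGF8 cells, 25 were lower in the FGF8 library (41.2% of all genes were higher), 5 passed 1.5-fold lower (12.7% of all genes) and the median was -0.40 against -0.09 over all genes. Their sum was 4076 CPM (3978 to 4176) in BSA and 3353 CPM (3289 to 3417) in FGF8 cells, and the BSA value was the highest of any type in that library. *Nop58* was lowest, at 236 and 120.0 CPM (-0.98, -1.19 to -0.77), *Ncl* was at 537 and 426 CPM (-0.33, -0.46 to -0.21) and *Npm1* at 1454 and 1414 CPM (-0.04, -0.11 to 0.03). Cell cycle genes were nearly level, at 1797 and 1727 CPM, the 7 chondrocyte markers stood at 48322 and 35873 CPM and the 10 fibroblast markers at 9577 and 4146 CPM. Dissociation genes stood at 2968 and 1582 CPM, erythroid markers at 118 and 2370.3 CPM, neutrophil markers at 3.11 and 164 CPM and macrophage markers at 8.08 and 120.3 CPM. By sex, the members' median was -0.74 over female-called and -0.19 over male-called chondrocyte-like cells, each a part of the 55 and 135 cells. The numbers of cells and members behind each of these medians are not given here, and the difference between the sexes was not tested. The parts of these marker levels in the result were not tested.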

How the data were processed

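The deposited files hold, per the labels, 1 droplet (10x Genomics) library for each bead type. They are matrices of UMI counts per gene and barcode, which the authors made with Cell Ranger 9.0.0 on GRCm39 (the processing notes also list mm10), unnormalized. The files held 3703 barcodes with 67739460 UMIs (BSA) and 7249 barcodes with 124889213 UMIs (FGF8). Cells with over 200 and under 7500 genes and under 15% mitochondrial counts were kept, as in the study: 3252 and 6715, within 1 cell of the numbers the study gives. The libraries were normalized with SCTransform (sctransform 0.4.2), integrated by CCA and clustered in Seurat 5.3.0 (R 4.3.3, 30 components, resolution 0.05, FGF8 merged first). The fibroblast-like cells were clustered again at 0.2 without the members and the other genes left out as described above. Of the members only *Npm1* was among the features that clustered all cells. Cell type names are rebuilt from marker lists and may differ from the study's. A cluster was named where at least 3 markers of a list were detected, and left unnamed where its cells had few UMIs and no marker led it.

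Counts were summed per library and cell type (Python 3.11.15, scipy 1.17.1, pandas 2.3.3), divided by the library's total for that type, and compared as log2 ratios for genes whose UMIs over both libraries reached 100. Levels carry exact Poisson and ratios exact conditional 95% intervals, which cover counting error only. The ratio intervals were checked only on simulated Poisson counts, the case they assume, so that check says nothing of spread between cells. No p-value can be given with 1 library per group. Cells were sex-called from Xist and Y-linked UMIs. Scrublet called 0 doublets at its own threshold, so the study's filter stood, and an alternative removed the highest-scoring 2.95% of BSA and 5.79% of FGF8 cells. All 35 members had a promoter window, read from the GRCm39 genome with GENCODE transcripts.

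The members, lists and comparisons were chosen with earlier results of these data known, so no count here is independent support for an earlier one. Members of each role group were all described; of the other lists, the genes named were those with the highest and lowest ratios, of which 1 is not reported here. Alternatives covered the cell filter, doublets, resolution, integration, sex, depth, cell cycle share, scaling, thinning to 5000 UMIs and the count minimum.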

Additional observations from a re-analysis of the deposited data

Results flagged for a closer look

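The members' median log2 ratio in chondrocyte-like cells was -0.40, with 25 of 25 genes lower in the FGF8 library, whereas in fibroblast-like and macrophage-like cells it was 0.79 and 0.67 with 35 of 35 genes higher. It was picked out because the genes of one cell type all lay on one side and those of the others on the opposite side. This difference between cell types was not tested, since there was 1 library per bead. It rests on 55 BSA and 135 FGF8 cells, and was -0.74 over the female-called and -0.19 over the male-called of them, whose numbers are not given here. Without integration of the libraries, 53 and 135 cells gave a median of -0.39, again with 25 of 25 lower. At or below the median cell cycle share of chondrocyte-like cells it was -0.69 over 18 genes, and above that share -0.11 over 17 genes, of which 5 were higher.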

How the results depend on the processing

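The members' median log2 ratio in fibroblast-like cells (0.79) and the sign of their summed ratio (0.74) stayed above 0 under every alternative tried. The median was 0.66 with a stricter cell filter, 0.85 in the female-called cells, 0.60 in the male-called, 0.63 with each cell weighted equally, 0.63 after thinning to 5000 UMIs and 0.87 centred on the median of all genes. It was less at resolution 0.2 (0.22), in cells with 10000 to 20000 UMIs (0.38), in cells with a low cell cycle share (0.18) and with the same subcluster weights in both libraries (0.52), and it was 0.67 in cells with a high share. In the same order, the summed ratio was 0.55, 0.82, 0.65, 0.57, 0.60, 0.81, 0.21, 0.37, 0.12, 0.51 and 0.67, and it was 0.69 in the first clustering looked at and 0.76 without mitochondrial and ribosomal protein UMIs. Members past 1.5-fold (26) numbered 0 at resolution 0.2 (4.14% of all genes), 5 in cells with 10000 to 20000 UMIs (5.68%) and 0 at a low cell cycle share (3.45%). With equal subcluster weights they numbered 13, for which no share of all genes is given here. At a threshold of 2-fold in the main comparison, without such weights, 4 members passed (3.27% of all genes). Fewer or other cells entered by construction at resolution 0.2, in that range of UMIs and at a low cell cycle share. Equal subcluster weights instead changed the weights of the subclusters, and no other cause was tested. Of 628 single-gene values 623 were above 0. The exceptions were *Nop10* at resolution 0.2 (-0.0558), *Polr1a* (-0.0271), *Ddx18* (-0.0420) and *Gnl2* (-0.10) in cells with 10000 to 20000 UMIs, and *Ddx18* at a low cell cycle share (-0.11). The settings share cells of the same libraries, and a changed count minimum alters no ratio. The count over all settings is therefore no independent support, and it has no share of all genes beside it.

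The other biogenesis genes' median (0.38) was 0.27 with the stricter filter, 0.15 at resolution 0.2, 0.47 in the female-called, 0.30 in the male-called, 0.15 in cells with 10000 to 20000 UMIs, 0.14 at a low cell cycle share, 0.29 with each cell weighted equally, 0.29 thinned and 0.29 with equal subcluster weights. The ribosomal protein median (0.11) was 0.0445 at resolution 0.2, 0.18 centred, and on the other side of 0 (-0.0294) at a low cell cycle share.

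In macrophage-like cells the members' median (0.67) was 0.55 with the stricter filter, 0.54 with each cell weighted equally and 0.56 thinned. In cluster 2 (0.24) it was 0.12 in female-called cells, 0.53 in male-called cells, 0.17 centred and 0.12 thinned. Male-called cells gave 0.33 in smooth muscle or pericyte-like cells (0.19) and -0.14 in Schwann-like cells (-0.03). In chondrocyte-like cells (-0.40) it was -0.74 where female-called and -0.19 where male-called. The numbers of cells and members behind these values by sex are not given here.

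The finer splits, the first clustering and the Prg4-led cluster at resolution 0.2 were added after seeing the data. No paired analysis was possible because each bead type had 1 library and the labels carry no replicate numbers. In neutrophil-like, erythroid-like and mast-like cells only 8, 2 and 3 members reached 100 UMIs. Leaving out a library would leave no comparison.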
